A study of Mus musculus with 4 samples.

Results

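The cells described here are tumor neutrophils, the CD45+ cells richest in *S100a8* and *S100a9* in EO771 mammary tumors. EO771 is a mammary tumor line of C57BL/6 origin, and it was grown in the mammary gland of female C57BL/6 mice that carried a floxed *Csf1r* gene on both alleles. In *Lyve1CreCsf1rfl/fl* mice, Cre recombinase driven from *Lyve1* deletes *Csf1r* in cells that express LYVE-1, and the *Csf1rfl/fl* mice carry the same floxed alleles without Cre. The ages of the mice are not given in the sources used here. There were 2 tumors per genotype. Viable CD45+ cells were sorted, marked with hashtag antibodies, and 1 tumor of each genotype was pooled in each of 2 Chromium runs, so a run is a batch that holds both genotypes. Cre from *Lyve1* is not restricted to macrophages, since lymphatic endothelium also expresses LYVE-1.

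The neutrophils were chosen by 3 measured values in each cell kept by the authors. *S100a8* and *S100a9* together made up at least 300 of every 10000 unique molecular identifiers (UMIs, counted RNA molecules), no UMI came from *Cd3d*, *Cd3e* or *Cd3g*, the chains of the T cell receptor complex, and none came from *C1qa*, *C1qb* or *C1qc*, complement genes of macrophages. This gave 4564 of 28429 kept cells, or 16.1%. Of the 5963 kept cells that reached the *S100a8* and *S100a9* threshold, 1391 held a *Cd3* or *C1q* UMI and 8 more had equal counts of both hashtags, and these were left out. The 140 neutrophils between 300 and 350 had a median of 2106 UMIs and the 146 cells between 250 and 300 a median of 1888, and Scrublet called 27.9% and 29.5% of them doublets, so the threshold falls within a continuous range.

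Neutrophils are short-lived granulocytes made in the bone marrow under granulocyte colony-stimulating factor. Their granule proteins are transcribed in waves, with azurophil proteins first, specific granule proteins next and gelatinase granule proteins last, and the transcripts of the early waves are largely gone from mature cells. S100A8 and S100A9 form calprotectin, the most abundant protein pair of the neutrophil cytosol, and mature neutrophils enter tissue through CXCR2, the receptor for chemokines such as CXCL2. In tumors they are known as sources of interleukin-1, chemokines and factors that act on vessels and T cells.

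The *Csf1rfl/fl* tumors gave 1127 and 1382 neutrophils in runs 1 and 2, and the *Lyve1CreCsf1rfl/fl* tumors 1479 and 576. Their median UMI count was 2510 and 2525 in run 1 and 1828 and 1838 in run 2, against a median of 4612 in all other kept cells. The counts of both hashtags were within 3 times of each other in 18.5% of neutrophils of the *Csf1rfl/fl* tumor of run 1, in 6.76% of the *Lyve1CreCsf1rfl/fl* tumor of that run and in 0.724% and 1.39% of those of run 2, so tumor labels were least certain in run 1. The runs shared 200 barcodes in all, and 1 barcode occurred among the neutrophils of both. Markers of 11 other cell types were checked in all neutrophils and in clusters 1 to 3, defined further on and holding 82.0% of the neutrophils. In all neutrophils the 7 monocyte markers summed to 31.3 and 15.8 UMIs per 10000 in the *Csf1rfl/fl* tumors of runs 1 and 2. They summed to 21.2 and 18.1 in the *Lyve1CreCsf1rfl/fl* tumors and to 37.3 in other kept cells. The 7 natural killer cell markers summed to 5.19 and 1.61 against 4.33 and 2.26, and to 18.5 in other kept cells. Clusters 4 to 8 carried genes of other cells, so low levels in clusters 1 to 3 follow in part from the clustering. In clusters 1 to 3 the 8 T cell markers summed to between 0.224 and 0.709 UMIs per 10000 in a tumor. All 8 dendritic cell markers and all 5 markers of mast cells and basophils were under 0.1 there, the latter at 0. In these clusters the 7 monocyte markers, of which 3 were under 0.1, summed to 12.1 and 7.15 in the *Csf1rfl/fl* tumors and to 7.13 and 8.54 in the others.

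The 2 genes of the rule lie side by side on chromosome 3 of mm10. *S100a8* (ENSMUSG00000056054.9) spans chr3:90668978-90670035 on the plus strand and *S100a9* (ENSMUSG00000056071.12) spans chr3:90692632-90695721 on the minus strand. *S100a9* was at 844 and 794 UMIs per 10000 in the neutrophils of the *Csf1rfl/fl* tumors of runs 1 and 2 and at 734 and 785 in those of the *Lyve1CreCsf1rfl/fl* tumors. *S100a8* was at 752 and 506 in the *Csf1rfl/fl* tumors and at 599 and 519 in the *Lyve1CreCsf1rfl/fl* tumors. The balance of the pair differed between the runs, whose tumors are also different mice, so that run and mouse cannot be told apart. *S100a9* was 1.12 and 1.23 times as abundant as *S100a8* in the tumors of run 1 and 1.57 and 1.51 times in those of run 2. In the median cell the pair took 16.8% of all UMIs in the *Csf1rfl/fl* tumor of run 1 and 12.6% in each of the other 3 tumors, and the cells ranged widely, from a 10th percentile of 4.48% to 5.23% to a 90th percentile of 24.8% to 31.1% across tumors. These values chose the cells and are given as a description.

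Transcripts of the pair were also found in cells that were not chosen as neutrophils. In cells with at least 3 *Cd3* UMIs, *S100a9* was at 41.7 and 15.3 UMIs per 10000 in the *Csf1rfl/fl* tumors of runs 1 and 2 and at 31.5 and 10.9 in the *Lyve1CreCsf1rfl/fl* tumors. The ratio of *S100a9* to *S100a8* in these cells, 1.17 and 1.27 in run 1 and 1.50 and 1.50 in run 2, lay near that of the neutrophils of the same tumor. In Ly6c2 monocytes, which were defined by at least 10 *Ly6c2* UMIs per 10000 with *S100a8* and *S100a9* under the threshold, the same ratio was between 0.783 and 1.07 and *S100a9* was at 6.29 to 7.27. The level in monocytes is held down by that threshold, which was not applied to the cells with *Cd3*, so the levels of these cell groups cannot be compared. After each cell was thinned to 1000 UMIs, *S100a9* was detected in 100% of 4453 neutrophils, in 24.0% of 8123 cells with *Cd3* and in 22.2% of 3454 monocytes, with 111, 13 and 32 shallower cells left out. Without thinning the shares were 100%, 59.0% and 55.7%, at median depths of 2151, 5247 and 4660 UMIs. Shares in cells with *Cd3* are also given for 3 of the markers below.

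The other 4 marker genes were not part of the rule. *Retnlg*, which encodes a resistin-like secreted protein of granulocytes, was at 83.7 and 34.7 UMIs per 10000 in the *Csf1rfl/fl* tumors and at 57.8 and 48.1 in the *Lyve1CreCsf1rfl/fl* tumors. *G0s2*, an inhibitor of the lipase that breaks down stored triglycerides, was at 49.8 and 63.2 in the *Csf1rfl/fl* tumors and at 72.0 and 58.6 in the others. *Cxcl2*, the chemokine ligand of CXCR2, was at 358 and 390 in the *Csf1rfl/fl* tumors and at 516 and 312 in the *Lyve1CreCsf1rfl/fl* tumors, which made it the third most abundant of the 6 markers. *Il1a*, the alarmin interleukin-1α, was far lower, at 1.63 and 4.18 in the *Csf1rfl/fl* tumors and 2.72 and 1.86 in the *Lyve1CreCsf1rfl/fl* tumors. The values of the genotypes overlapped for each of these 4 genes.

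Measured against all other kept cells, *Retnlg* was 23.3 times as high in neutrophils, *G0s2* 19.8 times, *Cxcl2* 13.3 times and *Il1a* 12.5 times, on means over 4 tumors. The other cells include the 1391 cells set aside for a *Cd3* or *C1q* UMI, and against Ly6c2 monocytes the ratios were 153, 54.7, 18.7 and 18.6. After thinning, *Il1a* was detected in 14.8% of neutrophils and 0.640% of cells with *Cd3*, *Retnlg* in 73.7% and 5.23%, and *Cxcl2* in 95.5% and 19.9%. *Il1a* was thus a transcript of a minority of the cells at this depth, while *Cxcl2* was found in nearly every neutrophil.

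The 10 genes with the highest ratio to other cells held the 2 rule genes, *Retnlg*, *G0s2* and 6 more. *Mrgpra2b*, a receptor of the Mas-related family, was 23.1 times as high, at 2.16 ± 0.302 UMIs per 10000 (mean ± SD, n = 4 tumors). *Stfa2l1* and *Cstdc4*, of the stefin A family of cysteine protease inhibitors, were 22.7 and 19.9 times as high, at 12.4 ± 0.967 and 24.8 ± 3.34, and reads of this multigene family may be split between near-identical copies. *Cxcr2* was 20.8 times as high, at 6.56 ± 1.91, *Wfdc21* 20.1 times, at 18.8 ± 3.72, and *Il1f9*, which encodes interleukin-36γ, 19.6 times, at 6.94 ± 2.24. All 20 genes of a neutrophil identity list that included *Csf3r*, *Cxcr2*, *Hdc* and *Trem1* were higher than in the other cells, beside 2125 of all 8660 genes tested outside the rule, and their summed level was 328 UMIs per 10000 in neutrophils, 27.5 in other cells and 32.4 in monocytes. The rule genes and the 10 genes above were chosen for being high, so their ratios are a description. The identity list shares genes with them, such as *Cxcr2*, so its count and sum are a description too.

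**Figure D1:**
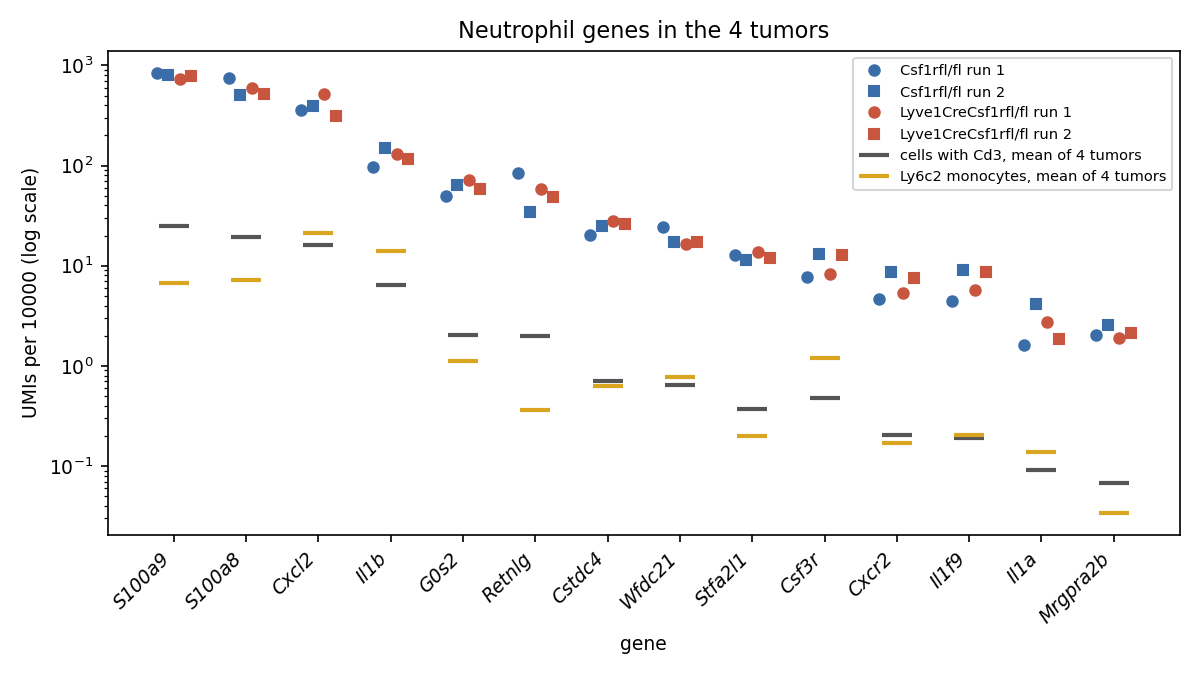
Levels of 14 neutrophil genes in UMIs per 10000 on a log axis, with 1 point for each tumor (blue, *Csf1rfl/fl*, and red, *Lyve1CreCsf1rfl/fl*, with circles for run 1 and squares for run 2) and bars for the 4-tumor mean of cells with *Cd3* (grey) and of Ly6c2 monocytes (yellow). Every tumor lies above both bars for each gene shown. The colors lie apart for *S100a9*, a gene of the rule (red at 734 and 785, blue at 794 and 844), and for *Cstdc4* (red at 28.0 and 26.2, blue at 20.2 and 24.8). They overlap for the other genes shown. The share of all tested genes that lie apart was not counted, so this is a description only.

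The granule genes placed most of the cells past the early waves. None of the 4564 neutrophils held a UMI of *Mpo*, myeloperoxidase, and 5 held one of *Elane*, neutrophil elastase, so the 5 azurophil genes summed to between 0.0158 and 0.130 UMIs per 10000 in a tumor. A count of 0 cells allows a share of up to 0.0657% of cells with a *Mpo* UMI. No cell of clusters 1 to 3 held a UMI of *Elane*, which was found in 2.67% of Ly6c2 monocytes. The azurophil genes summed to 0.0124, 0.0171 and 0 in clusters 1, 2 and 3 and to 0.304 in cluster 4, which carried genes of monocytes. Among the specific granule genes, *Camp*, cathelicidin, was found in 46 cells, or 1.01%, and *Ngp*, neutrophilic granule protein, in 248, or 5.43%. *Lcn2*, lipocalin 2, was the highest, at 16.1 and 9.05 UMIs per 10000 in the *Csf1rfl/fl* tumors and 8.87 and 9.19 in the *Lyve1CreCsf1rfl/fl* tumors. *Ngp* was at 1.80 in the *Csf1rfl/fl* tumor of run 1 and between 0.158 and 0.411 in the other 3, so that tumor stood apart, as it did for *S100a8*, *Retnlg* and *Lcn2*. Of the gelatinase granule genes, *Mmp9*, gelatinase B, was at 3.34 and 4.05 in the *Csf1rfl/fl* tumors and 2.40 and 3.05 in the *Lyve1CreCsf1rfl/fl* tumors.

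The 15 chemokine ligands listed summed to 568 UMIs per 10000 in neutrophils, 80.4 in other cells and 78.0 in monocytes. After *Cxcl2*, the highest were *Ccl4*, at 53.4 to 85.2 across tumors, *Ccl3*, at 31.0 to 51.7, and *Ccl6*, at 11.9 to 29.1. *Il1b*, interleukin-1β, was at 97.1 and 149 in the *Csf1rfl/fl* tumors and 131 and 117 in the *Lyve1CreCsf1rfl/fl* tumors, and its antagonists *Il1rn* and *Il1r2*, the receptor antagonist and the decoy receptor, were at 10.7 to 27.4 and 8.78 to 12.7. Levels of *Il1b* and *Il1rn* ran apart by cluster, at 184, 99.2 and 188 for *Il1b* and 13.8, 41.0 and 27.2 for *Il1rn* in clusters 1, 2 and 3, which are defined further on. *Nlrp3*, the inflammasome sensor, was at 5.67 to 12.8.

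Among the receptors, *Csf3r*, the receptor of granulocyte colony-stimulating factor, was at 7.67 and 13.2 UMIs per 10000 in the *Csf1rfl/fl* tumors and 8.26 and 12.7 in the *Lyve1CreCsf1rfl/fl* tumors, lower in run 1 than in run 2 in both genotypes. *Cxcr2* showed the same split by run, with 4.65 and 5.29 in run 1 and 8.72 and 7.58 in run 2. *Ccrl2*, which presents chemerin, was at 11.5 to 16.6 and *Ccr1* at 7.05 to 15.0. Of the genes for sensing microbes and damage, *Cd14*, the lipopolysaccharide co-receptor, was at 18.3 to 24.5 and the lectin *Clec4e* at 21.2 to 28.8. *Ptgs2*, cyclooxygenase 2, was at 11.4 to 28.3, *Cd274*, PD-L1, at 4.32 to 9.49 and *Wfdc17* at 58.9 to 102. The highest of the growth and vessel factors was *Plaur*, the urokinase receptor, at 11.3 to 16.0, followed by *Osm*, oncostatin M, at 6.49 to 14.4. *Mcl1*, which neutrophils need to survive, was at 21.5 to 26.2. MHC class I genes were lower than in other cells for 13 of 13 genes and ribosomal protein genes for 83 of 84, which summed to 636 UMIs per 10000 against 2318. Most genes were lower in neutrophils, since 2125 of 8660 were higher than in other cells.

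The runs differed in the same genes in both genotypes. CPM scales the UMIs of a gene to a fixed total, here after TMM factors, which adjust for differences in composition between tumors. Log2 ratios of genes within a run, and their list medians, use this scale. They can therefore differ from ratios of the UMIs per 10000. Over 2758 genes with a mean log2 CPM above 5, the log2 difference between runs 1 and 2 was compared between the genotypes. In *Csf1rfl/fl* neutrophils it correlated with that in *Lyve1CreCsf1rfl/fl* neutrophils at r = 0.678. This is given as a description across genes, which share their libraries. *Malat1*, a nuclear noncoding RNA, was at 319 and 348 UMIs per 10000 in the tumors of run 1 and at 485 and 468 in those of run 2. *Dusp1*, an early response phosphatase, was at 19.1 and 26.4 in run 1 and 42.3 and 40.3 in run 2, and *Acod1*, which makes itaconate, at 18.0 and 24.5 against 46.8 and 32.9. The runs did not overlap for these genes, whereas the genotypes did.

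To see how the neutrophils varied among themselves, they were clustered without *S100a8* and *S100a9*, which gave 8 clusters. Each gene here was open to the clustering, so levels by cluster are a description. Clusters 1, 2 and 3 held 1861, 1254 and 629 cells, with median UMI counts of 1911, 1968 and 2077, and Scrublet called 0.161%, 2.07% and 0.795% of them doublets. Clusters 4 to 8 held 820 cells, 18.0% of all, with a median of 5432 UMIs and 71.1% called doublets.

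Cluster 1 was led by *Mmp9*, at 6.03 UMIs per 10000 against 1.86 in the other neutrophils, by *Lrg1*, a secreted leucine-rich glycoprotein, at 8.56 against 2.88, and by *Pglyrp1*, a peptidoglycan-binding granule protein, at 8.26 against 3.21. *Dgat1*, the enzyme of triglyceride synthesis, *Mmp8*, neutrophil collagenase, and *Ccpg1* were also among its 6 leading genes. The rule genes were highest here, with *S100a9* at 1138 against 772 in cluster 2 and 831 in cluster 3, and *Retnlg* was at 99.4 against 38.4 and 49.1. *Csf3r* was at 14.5 against 9.69 and 11.9, and *Il1a* was lower than in clusters 2 and 3, at 1.86 against 5.23 and 4.93. Among clusters 1 to 3, cluster 1 thus had the highest levels of these granule genes and of calprotectin and the lowest of *Il1a*.

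Cluster 2 was led by *Fnip2*, a partner of folliculin, at 3.20 UMIs per 10000 against 0.482 in the other neutrophils. *Hilpda*, a hypoxia-inducible lipid droplet protein, was at 24.6 against 4.65, and *Ero1l*, an oxidase of the endoplasmic reticulum, at 7.57 against 1.47. *Slc31a2*, a copper transporter, and the transcripts *1700017B05Rik* and *E230032D23Rik* made up the other leading genes. The 25 genes of a glycolysis and hypoxia list summed to 145 in cluster 2, 66.6 in cluster 1 and 70.6 in cluster 3. *Ccl3* and *Ccl4* were at 99.1 and 134 in cluster 2 against 30.9 and 49.5 in cluster 1, and *Cxcr2* was lower than in cluster 1, at 4.60 against 9.61. In each tumor *Hilpda* was higher in cluster 2, at 15.5 to 29.5, than in clusters 1 and 3, at 1.68 to 8.43.

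Cluster 3 was led by interferon-stimulated genes. *Rsad2*, viperin, was at 73.4 UMIs per 10000 against 12.5 in the other neutrophils, *Cxcl10*, a ligand of CXCR3, at 34.8 against 4.32, *Gbp2*, a guanylate-binding protein, at 16.1 against 2.40 and *Cmpk2*, a mitochondrial kinase, at 9.39 against 1.01. *Ifit2* and *Gbp5* were the other leading genes. The 34 interferon-stimulated genes listed summed to 611 in cluster 3, 290 in cluster 1 and 229 in cluster 2. *Cxcl10* in cluster 3 hardly varied between tumors, at 33.9 to 36.4, while *Rsad2* was at 44.7 and 59.9 in run 1 and 99.9 and 109 in run 2. *Il1b* was as high here as in cluster 1, at 188 and 184, against 99.2 in cluster 2.

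The promoters of the genes that led cluster 3 are shown because many hold a direct repeat of GAAA with 2 bases of any kind between the copies, the core of the interferon-stimulated response element. RefSeq promoters of build GRCm38.p6 were searched on both strands over the 250 bases before the start site. They were found for 17 of the 20 leading genes of cluster 3, and 9 held the repeat, or 52.9%, against 0 of 17 for cluster 1, 2 of 15 for cluster 2, 3.82% of 6860 genes tested in the neutrophils and 3.46% of all 27025 genes with a promoter. The repeat is in capitals below, on the strand of the gene, and where it reads as TTTC it lies on the other strand.
Gbp2: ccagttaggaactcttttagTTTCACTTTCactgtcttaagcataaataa
Rsad2: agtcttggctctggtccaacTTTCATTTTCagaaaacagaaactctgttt
Cxcl10: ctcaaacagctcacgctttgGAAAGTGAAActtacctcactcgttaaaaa
Gbp5: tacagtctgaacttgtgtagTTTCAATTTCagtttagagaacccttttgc
The stretch of *Gbp2* is chr3:142620584-142620633 on the plus strand, with the repeat 50 to 59 bases before the start site. Those of *Rsad2*, chr12:26456543-26456592, and *Cxcl10*, chr5:92349073-92349122, are on the minus strand, with the repeat 111 to 120 and 204 to 213 bases before the start. That of *Gbp5* is chr3:142496749-142496798 on the plus strand, 156 to 165 bases before. The letters are a description of these windows and not evidence of binding.

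For cluster 2 the letters searched were ACGTG, the core of the hypoxia response element, which also occurs within other motifs such as the E-box CACGTG. Of 15 leading genes with a promoter, 6 held it on either strand, or 40.0%, against 29.4% for cluster 1, 5.88% for cluster 3, 26.7% of the genes tested and 18.5% of all genes. *Hilpda*, the leading gene of this cluster with the highest level, is shown, with the core 39 to 43 bases before its start site within chr6:29272563-29272607 on the plus strand.
Hilpda: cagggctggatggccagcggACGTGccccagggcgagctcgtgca
A share of 6 of 15 beside 26.7% of the genes tested does not set the cluster apart by these 5 letters.

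Clusters 4 to 8 met the rule but carried the genes of other cells. Cluster 4, with 610 cells, was led by *Chil3*, *Vcan*, *Cfb*, *Ms4a6d*, *Ccl12* and *Ms4a6c*, genes of monocytes and macrophages, and its 7 monocyte markers summed to 56.7 UMIs per 10000 against 6.11, 6.31 and 19.1 in clusters 1, 2 and 3. Cluster 5, with 66 cells, was led by *Gzma*, at 74.2, and *Ncr1* and other genes of natural killer cells. The 62 cells of cluster 6 were led by *Fscn1*, *Ccl22* and other genes of migratory dendritic cells, and the 30 of cluster 8 by *Siglech*, *Cox6a2*, *Ccr9* and *Klk1*, genes of plasmacytoid dendritic cells. Cluster 7 was led by *Ebf1*, *Cd79a* and *Ms4a1*, genes of B cells, and 39 of its 52 cells came from the *Lyve1CreCsf1rfl/fl* tumor of run 2. Scrublet called 69.0%, 89.4%, 91.9%, 38.5% and 86.7% of clusters 4 to 8 doublets. These clusters made up 25.8% and 9.84% of the neutrophils of the *Csf1rfl/fl* tumors of runs 1 and 2 and 20.6% and 15.5% of those of the *Lyve1CreCsf1rfl/fl* tumors. The gene test and the list medians are therefore also given for clusters 1 to 3 alone.

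**Figure D2:**
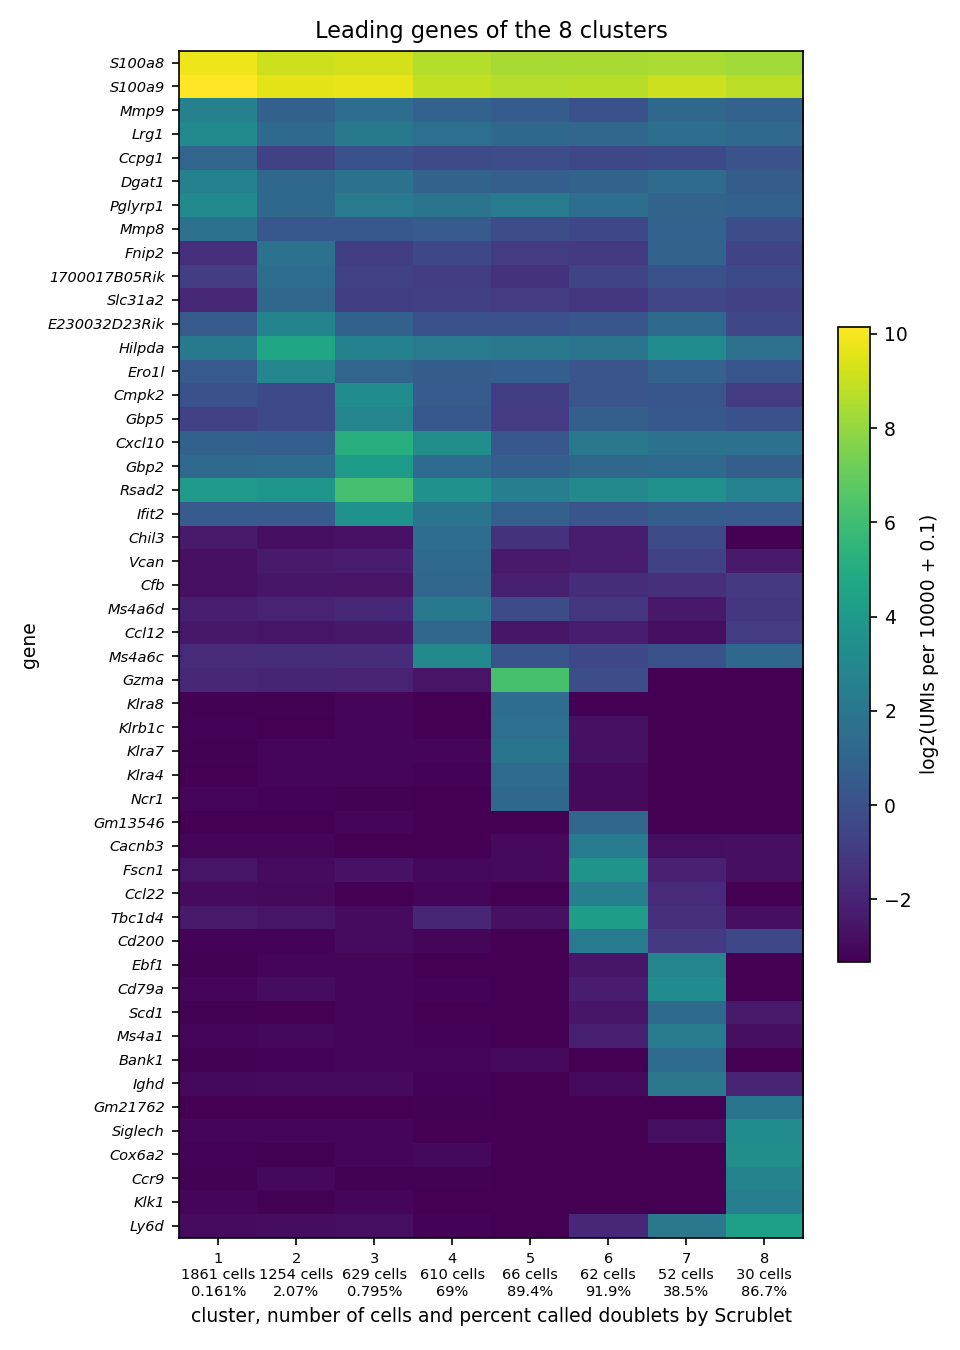
Level of the rule genes and the 6 leading genes of each cluster, as log2(UMIs per 10000 + 0.1), in the 8 clusters of neutrophils, with the number of cells and the percent called doublets under each. *S100a8* and *S100a9* are high in all 8, clusters 1 to 3 differ by granule, hypoxia and interferon genes, and clusters 4 to 8 each add genes of another cell type and have 38.5% to 91.9% of doublets.

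The genotypes were compared first by the number of neutrophils. They were 13.1% of the kept cells of the *Csf1rfl/fl* tumor of run 1 (95% Wilson interval 12.4% to 13.8%, counting error only) and 17.7% of that of run 2 (16.9% to 18.6%). In the *Lyve1CreCsf1rfl/fl* tumors they were 20.4% (19.5% to 21.3%) and 12.1% (11.2% to 13.03%). The *Lyve1CreCsf1rfl/fl* share was higher by 0.64 on the log2 scale in run 1, and in run 2 it fell by 0.56 against the *Csf1rfl/fl* tumor. The mean log2 difference was 0.04, and an exact two-sided permutation test gave p = 1, where 2 tumors against 2 cannot go below 0.333. The neutrophil share thus showed no common direction. Each run held 1 mouse per genotype, and the intervals do not cover the variation between mice. The authors' choice of cells bears on these shares. Among all deposited barcodes, before any were removed, cells meeting the rule were 13.2% and 13.8% in the *Csf1rfl/fl* tumors and 27.0% and 6.59% in the *Lyve1CreCsf1rfl/fl* tumors, with the same directions in each run.

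Within clusters 1 to 3, cluster 2 took a larger share in both *Lyve1CreCsf1rfl/fl* tumors. It held 30.4% of these cells in the *Csf1rfl/fl* tumor of run 1 and 26.8% in that of run 2, against 40.8% and 38.4% in the *Lyve1CreCsf1rfl/fl* tumors, so the genotypes did not overlap. Cluster 1 held 52.0% and 54.3% against 43.5% and 48.9%, and cluster 3 held 17.6% and 18.9% against 15.7% and 12.7%. These shares of 1 whole rise and fall together, and the clusters were made from the same cells, so no test is given. The difference in cluster 2 was 10.99 percentage points at the resolution used. Only kept cells were clustered. In the *Lyve1CreCsf1rfl/fl* tumor of run 1, 1479 kept cells and 2294 barcodes outside them met the rule. *Retnlg*, highest in cluster 1, was at 57.8 UMIs per 10000 in the former and 70.8 in the latter. In the *Csf1rfl/fl* tumor of run 1 it was at 83.7 and 89.0. In the tumors of run 2 it was lower outside the kept cells, at 24.4 and 26.8 against 34.7 and 48.1. The part of the choice of cells in these shares was not tested.

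**Figure D3:**
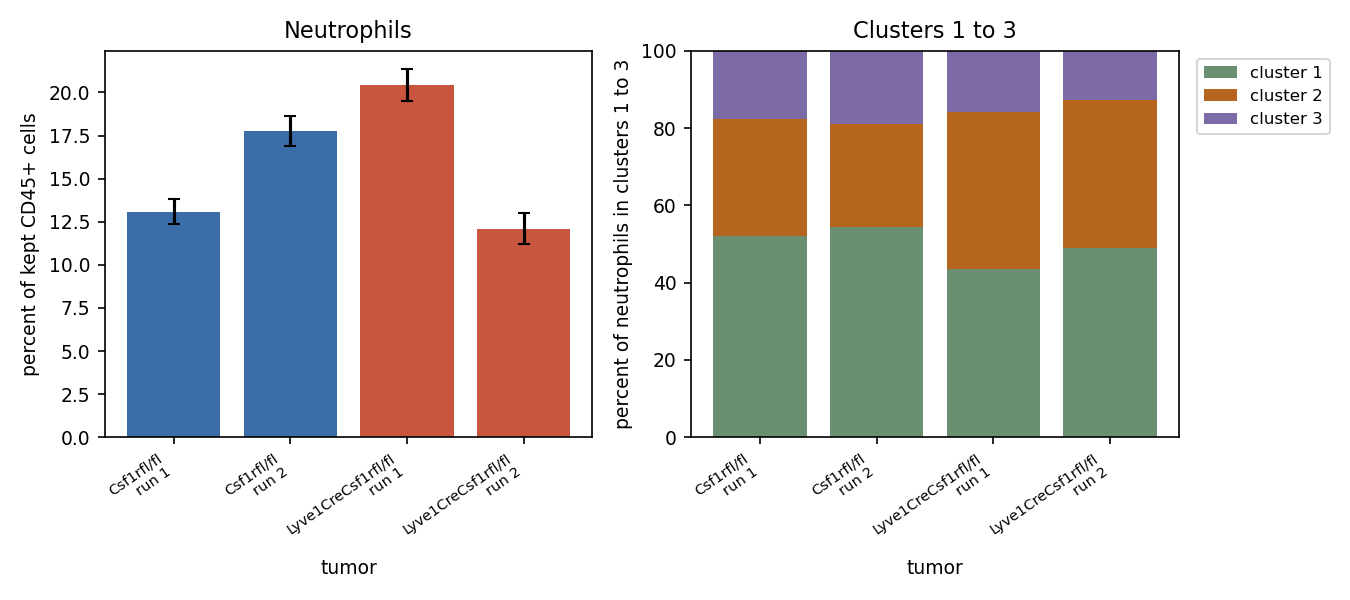
Left, neutrophils as a percent of kept CD45+ cells in each tumor, with 95% Wilson intervals as bars. Right, the percent of neutrophils of clusters 1 to 3 that fell in each cluster. The left bars run in opposite directions in the 2 runs, while cluster 2 is larger in both *Lyve1CreCsf1rfl/fl* tumors, at 40.8% and 38.4% against 30.4% and 26.8%.

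*Csf1r*, the floxed gene, encodes the receptor of macrophage colony-stimulating factor and is a gene of monocytes and macrophages. In neutrophils it was at 0.766 and 0.578 UMIs per 10000 in the *Csf1rfl/fl* tumors and at 0.413 and 0.431 in the *Lyve1CreCsf1rfl/fl* tumors, so the genotypes did not overlap. The log2 fold change was −0.66 ± 0.30 (SE) with an adjusted p of 1 by edgeR, in a fit that does not pair the tumors by run. In clusters 1 to 3 it was at 0.311 and 0.344 against 0.252 and 0.221, in Ly6c2 monocytes at 2.16 and 2.10 against 1.27 and 1.28 and in all other kept cells at 0.907 and 0.997 against 0.433 and 0.455. The tags lie at the 3′ end of the transcript and need not cover the deleted part, so this level is no check of the deletion. *Lyve1*, whose promoter drives Cre, had 4 UMIs in all neutrophils together, 1 and 3 in the tumors of run 1 and none in those of run 2.

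Across genes, the neutrophil UMIs of each tumor were summed and compared by edgeR's quasi-likelihood test, with 2 tumors per genotype and Benjamini-Hochberg adjustment. Of 8662 genes tested, 0 passed an adjusted p of 0.05, or 0%, and 114 had an unadjusted p under 0.05, against 37 by DESeq2, which also called 0. In clusters 1 to 3, 0 of 6092 genes passed, again 0%, with 95 at an unadjusted p under 0.05. Where the run was entered as a block, since each run held 1 tumor of each genotype, 4 genes passed, or 0.0462% of 8662, and 392 had an unadjusted p under 0.05. The 4 markers outside the rule were not among them. Without the block their fold changes lay between −0.32 for *Il1a* and 0.22 for *G0s2* on the log2 scale. Each was smaller than its SE, which were 0.42 to 0.51, but that fit ignores the pairing by run and leaves the run difference in the error. With the block the fold changes were −0.03 for *Retnlg*, 0.22 for *G0s2*, 0.11 for *Cxcl2* and −0.19 for *Il1a*. Their adjusted p by edgeR with the block was 0.993 to 0.994.

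The 4 genes called with the block were *Ccl7* and *Ccl12*, chemokines that attract monocytes through CCR2, *Ccr9*, a chemokine receptor of plasmacytoid dendritic cells and gut-homing lymphocytes, and *Plet1*, a surface protein of some dendritic cells and epithelia. *Ccl7* was at 0.649 and 0.338 UMIs per 10000 in the *Csf1rfl/fl* tumors and 0.131 and 0.0892 in the *Lyve1CreCsf1rfl/fl* tumors, a log2 fold change of −2.14 ± 0.23 (SE) with an adjusted p of 0.001 by edgeR with the block and 1 without. *Ccl12* was at 0.950 and 0.834 against 0.338 and 0.0966, *Ccr9* at 0.234 and 0.0979 against 0.0498 and 0.00743, and *Plet1* at 0.0337 and 0.0126 against 0.185 and 0.0669, each with an adjusted p of 0.0374 with the block and 1 without. All 4 also passed without the block where no filter on low counts was used, with adjusted p from 3.32e-05 to 0.00165 by edgeR. Of the 4, 3 were lower and 1 was higher in *Lyve1CreCsf1rfl/fl* tumors. The genotypes did not overlap for any of them. The genes were picked by a genotype test on these same tumors, so this adds no support to the calls.

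Most UMIs of these genes lay outside clusters 1 to 3. Of 432 UMIs of *Ccl7*, 64 came from clusters 1 to 3 and 363 from cluster 4, and of 806 of *Ccl12*, 67 and 722. Of 146 UMIs of *Ccr9*, 134 came from the 30 cells of cluster 8, and of 115 of *Plet1*, 102 came from cluster 4. In clusters 1 to 3, *Ccl7* was at 0.0779 and 0.0911 in the *Csf1rfl/fl* tumors and 0.0679 and 0.0554 in the *Lyve1CreCsf1rfl/fl* tumors, with a blocked log2 fold change of −0.42 and an adjusted p of 0.940 by edgeR. *Ccl12* was at 0.0876 and 0.0869 against 0.0711 and 0.0664, also with an adjusted p of 0.940. For both chemokines the genotypes did not overlap in clusters 1 to 3 either, over a smaller range. The share of all tested genes without overlap was not counted, so this is a description only. These levels rest on 64 and 67 UMIs over the 4 tumors together, so each tumor's value comes from few UMIs, and their counting error was not measured. The genes *Ccr9* and *Plet1*, with 10 and 12 UMIs left, were too low to be tested. No gene was called with the block in clusters 1 to 3, nor among all neutrophils without doublets. In Ly6c2 monocytes *Ccl7* and *Ccl12* had log2 fold changes of −1.86 and −1.61, and neither was called by edgeR. The 8 macrophage markers summed to 2.57 and 1.91 UMIs per 10000 in the neutrophils of the *Csf1rfl/fl* tumors and 1.76 and 1.35 in the others, with none of the 8 at 0, and their part in these results was not tested.

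**Figure D4:**
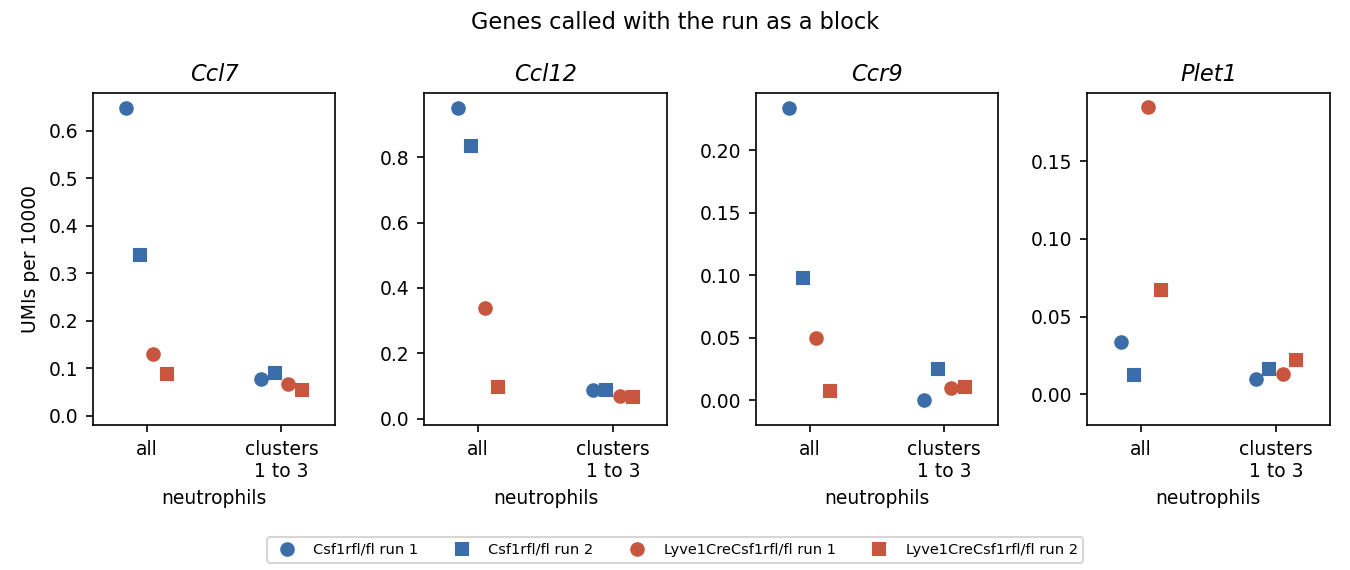
UMIs per 10000 of the 4 genes called with the run as a block, in all neutrophils and in those of clusters 1 to 3, with 1 point for each tumor (blue, *Csf1rfl/fl*, and red, *Lyve1CreCsf1rfl/fl*, with circles for run 1 and squares for run 2) and linear axes. Genotypes lie apart in all neutrophils, where the test picked these genes, while in clusters 1 to 3 *Ccl7* is between 0.0554 and 0.0911 in all 4 tumors.

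Since no gene passed without the block, those with the smallest p in that fit were also read, limited to genes above a log2 CPM of 5 with the same direction in both runs. None of them passed without the block, and *Ccl12* alone among those named here passed with it. Those lower in *Lyve1CreCsf1rfl/fl* neutrophils began, after *Ccl12*, with *Maf*, a transcription factor of macrophages, at 0.854 and 0.758 UMIs per 10000 in the *Csf1rfl/fl* tumors against 0.436 and 0.379, *Msr1*, a macrophage scavenger receptor, at 0.766 and 0.610 against 0.340 and 0.379, and *Ccl2*, at 1.79 and 0.742 against 0.762 and 0.468. *Csf1r* and *Fcgr1* followed. In clusters 1 to 3 the log2 fold changes of *Maf*, *Msr1* and *Ccl2* were −0.06, −0.25 and 0.68, against −0.95, −0.93 and −0.98 in all neutrophils. Those higher began with *Tbc1d4*, a leading gene of cluster 6, at 0.397 and 0.512 against 0.946 and 0.684, *Igf2r*, which clears insulin-like growth factor 2, at 0.234 and 0.281 against 0.365 and 0.543, and *Nceh1*, a cholesterol ester hydrolase, at 0.335 and 0.382 against 0.486 and 0.803. In clusters 1 to 3 these 3 had log2 fold changes of 0.99, 0.72 and 1.04, against 0.88, 0.79 and 0.82 in all neutrophils. *Tbc1d4* was at only 0.0941, 0.0719 and 0.0331 in clusters 1, 2 and 3, so its fold change there rests on few UMIs. It was at 18.9 in cluster 6, which held 1.33% and 0.651% of neutrophils in the *Csf1rfl/fl* tumors and 2.23% and 0.868% in the others. The part of cluster 6 in the difference of *Tbc1d4* was not tested. *Igf2r* was at 0.815 in cluster 2 against 0.154 and 0.278 in clusters 1 and 3, and *Nceh1* at 1.23 against 0.0743 and 0.166. Cluster 2 held a larger share in both *Lyve1CreCsf1rfl/fl* tumors, and its part in the differences of *Igf2r* and *Nceh1* was not tested.

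By gene list, 0 genes of any list passed the test in either direction without the block. The lists are therefore described by the count of genes that moved the same way in both runs, beside 22.9% higher and 26.3% lower in both runs among all 8660 genes outside the rule. Of 24 glycolysis and hypoxia genes, 15 were higher in *Lyve1CreCsf1rfl/fl* neutrophils in both runs and 1 was lower, with a median log2 fold change of 0.15 against −0.01 for all genes. *Hilpda* was at 8.13 and 5.50 UMIs per 10000 in the *Csf1rfl/fl* tumors and 12.3 and 8.40 in the *Lyve1CreCsf1rfl/fl* tumors. Its log2 fold change was 0.64 ± 0.40 (SE) with an adjusted p of 1 by edgeR without the block. The most abundant others had log2 fold changes of −0.01 for *Gapdh*, 0.00 for *Pkm* and −0.16 for *Slc16a3*, the lactate exporter. The list summed to 78.8 and 78.6 against 88.1 and 87.2 in all neutrophils and to 96.1 and 83.0 against 102 and 96.0 in clusters 1 to 3, where its values overlapped between genotypes and its median log2 fold change was 0.12. Cluster 2, where this list was highest, held a larger share in both *Lyve1CreCsf1rfl/fl* tumors. Within cluster 2 *Hilpda* was at 26.9 and 15.5 in the *Csf1rfl/fl* tumors and 29.5 and 20.5 in the others, and within cluster 1 at 5.58 and 1.82 against 6.22 and 1.68. The part of the cluster shares in the list result was not tested.

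Of 34 interferon-stimulated genes, 15 were lower in both runs and 0 higher, with a median log2 fold change of −0.21. The median ratio, after TMM scaling, was 0.06 in run 1 and −0.38 in run 2, so this median lay below 0 in run 2 only. Their summed UMIs per 10000, without that scaling, were lower in both runs, at 303 and 318 in the *Csf1rfl/fl* tumors against 291 and 255. The median log2 fold change was −0.24 in clusters 1 to 3. *Ifitm1*, an antiviral membrane protein, was at 62.5 and 43.5 UMIs per 10000 in the *Csf1rfl/fl* tumors and 62.9 and 30.0 in the *Lyve1CreCsf1rfl/fl* tumors. *Cxcl10* was at 7.95 and 9.42 against 7.16 and 5.99, and *Rsad2* at 12.1 and 30.6 against 16.8 and 24.1. Gelatinase granule genes were lower in both runs for 7 of 10, with a median of −0.21, and genes of the phagocyte NADPH oxidase, which makes superoxide, for 5 of 6, with −0.22. These medians were −0.32 and −0.26 in clusters 1 to 3. *Cybb*, its catalytic subunit, was at 2.24 and 1.98 against 1.72 and 1.89, and *Cyba* at 13.6 and 6.25 against 9.48 and 6.27, which overlapped.

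MHC class II genes were higher in both runs for 8 of 10, with a median log2 fold change of 0.42, and lower in 0. *Cd74*, the invariant chain, was at 9.89 and 5.70 UMIs per 10000 in the *Csf1rfl/fl* tumors and 10.3 and 10.4 in the *Lyve1CreCsf1rfl/fl* tumors. In clusters 1, 2 and 3 *Cd74* was at 1.16, 1.36 and 1.71, and in clusters 4, 6 and 7 at 23.9, 32.6 and 34.5, so its level was highest in clusters that carried genes of other cell types. The list had 6 genes tested and a median of 0.13 in clusters 1 to 3. The 7 B cell markers summed to 0.701 and 0.799 in the *Csf1rfl/fl* tumors and to 0.419 and 6.36 in the *Lyve1CreCsf1rfl/fl* tumors, and the 8 dendritic cell markers to 1.08 and 0.796 against 1.20 and 1.04. None of the markers of either type was at 0, and their part in the MHC class II result was not tested. Ribosomal protein genes were higher in both runs for 28 of 84 and lower for 1, with a median log2 fold change of 0.10 in all neutrophils and 0.05 in clusters 1 to 3, and their sum was 292 and 326 against 323 and 342 in clusters 1 to 3 and 747 and 479 against 678 and 642 in all neutrophils.

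Most neutrophil functions had medians of opposite sign in the 2 runs. Chemokine ligands had a median log2 ratio of *Lyve1CreCsf1rfl/fl* over *Csf1rfl/fl* of 0.52 in run 1 and −0.61 in run 2, NF-κB targets and feedback inhibitors 0.39 and −0.37, pattern recognition receptors 0.36 and −0.26 and the interleukin-1 family with the inflammasome 0.29 and −0.33. *Cxcl2*, *Il1b* and *Nlrp3* each showed this pattern, with log2 ratios of 0.64, 0.55 and 0.90 in run 1 and −0.42, −0.46 and −0.52 in run 2. For these genes the difference between genotypes had opposite signs in the 2 runs. Specific granule genes had a median of −0.80 in run 1 and 0.02 in run 2, where *Ngp* and *Lcn2* were highest in the *Csf1rfl/fl* tumor of run 1. Their median log2 fold change was −0.44 in all neutrophils and −0.65 in clusters 1 to 3. Within clusters 1 to 3 it was 0.12 for chemokine ligands, −0.14 for NF-κB targets, −0.04 for pattern recognition receptors and 0.0026 for the interleukin-1 family, against 0.05, −0.08, −0.08 and −0.09 in all neutrophils.

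**Figure D5:**
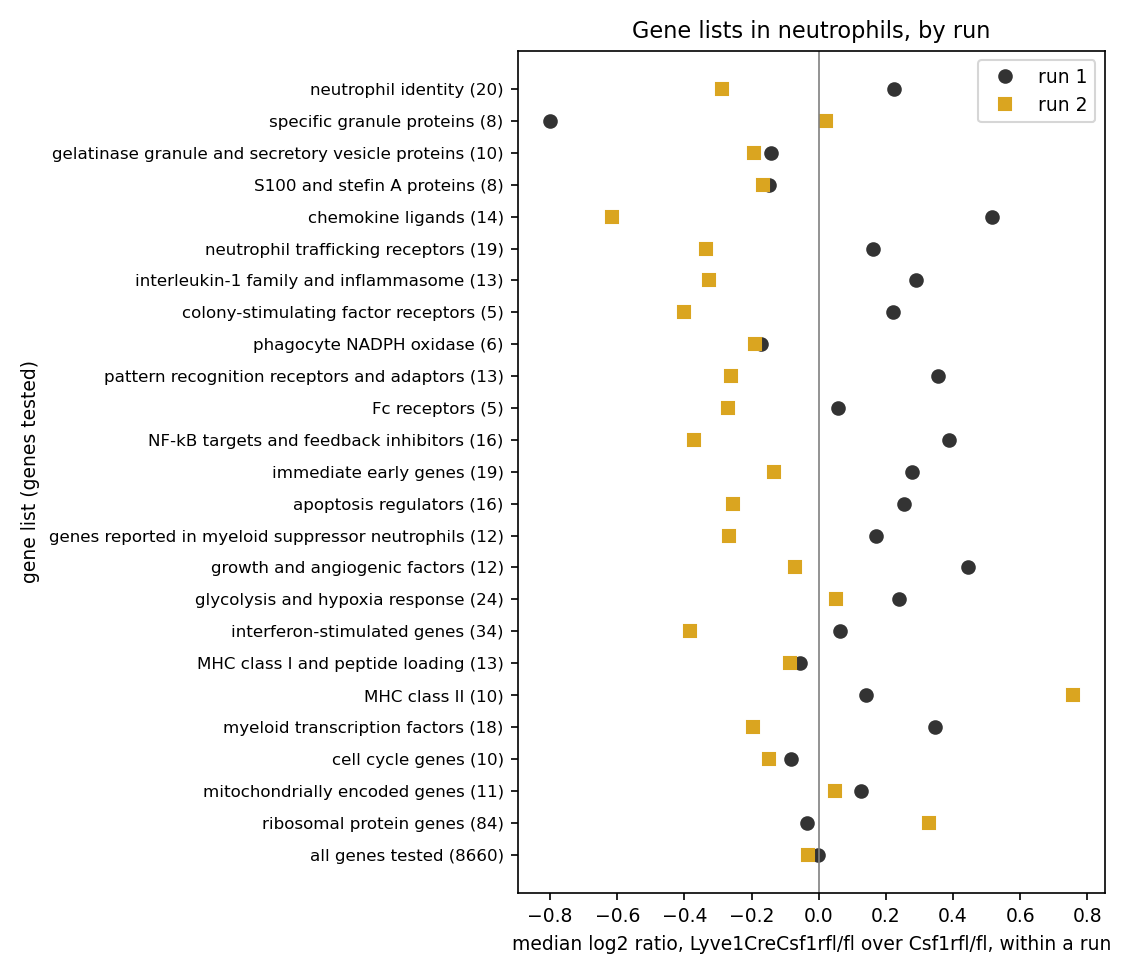
Median log2 ratio of *Lyve1CreCsf1rfl/fl* over *Csf1rfl/fl* neutrophils for each gene list, within run 1 (black circles) and run 2 (yellow squares), with the number of genes tested in parentheses. Chemokines, NF-κB targets and receptors lie on opposite sides of 0 in the 2 runs, and glycolysis and hypoxia genes (0.24 and 0.05) and MHC class II genes (0.14 and 0.76) lie above 0 in both.

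Whether the genotype difference was particular to neutrophils was tested against Ly6c2 monocytes of the same tumors, of which there were 3486. Of 10255 genes tested for a difference between the cell types in their genotype effect, 0 passed by edgeR, or 0%, 253 had an unadjusted p under 0.05, and DESeq2 also called 0. For *Ccl7* and *Ccl12* the difference in log2 fold change was −0.28 and −0.55, and for *Hilpda* 0.43, each with an adjusted p of 1 by edgeR. No gene was thus shown to respond differently to the genotype in neutrophils and monocytes with 2 tumors per genotype.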

How the data were processed

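The authors aligned the reads to mm10 with Cell Ranger 6.0.1 and deposited raw UMI counts per gene and cell, raw hashtag counts, and SCTransform corrected values, a score. The corrected values served only to name the cells they kept. Those were singlets with under 5% mitochondrial reads, after 4 clusters were removed. The paper describes these clusters as specific to the *Lyve1CreCsf1rfl/fl* tumor of run 2. A cell went to the tumor with the higher hashtag count of its run. UMIs of neutrophils were summed per tumor (3852581 and 3166259 for *Csf1rfl/fl*, 4819378 and 1345443 for *Lyve1CreCsf1rfl/fl*) and filtered for low counts. They were scaled with TMM factors and tested with edgeR 4.0.16 (R 4.3.3), with DESeq2 1.42.0 as an alternative. The run paired the tumors by design. The correlation of run differences (r = 0.678) is a description across genes and is no test of this pairing. In counts made with known changes, the edgeR test recovered 15.5% of 200 genes changed by 1 on the log2 scale and 98% of those changed by 2. The changed genes were drawn only from those above a log2 CPM of 5, so recovery of lower genes was not measured. Clustering (scanpy 1.11.5) used Leiden at a resolution of 0.4, on 2000 variable genes. Doublets were called with Scrublet and kept unless stated. Levels by tumor come from 1 library each. The members and lists were chosen with earlier results of these data known. Named genes were the rule genes and markers, the 4 highest of each list, those called, those with the smallest p, the 10 with the highest ratio to other cells and the 6 leading genes of each cluster. *Camp*, *Mpo* and *Hdc* were named after their values were seen. A fold change is *Lyve1CreCsf1rfl/fl* over *Csf1rfl/fl*. Alternatives are given in the closing section.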

Additional observations from a re-analysis of the deposited data

Results flagged for a closer look

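Barcodes that the authors did not keep also met the rule for neutrophils. There were 3542 of them among 24932 barcodes outside the kept cells, or 14.2%, against 4564 in the kept cells. They were not spread evenly, with 2294 in the *Lyve1CreCsf1rfl/fl* tumor of run 1, 478 in the *Csf1rfl/fl* tumor of that run, and 406 and 364 in the *Csf1rfl/fl* and *Lyve1CreCsf1rfl/fl* tumors of run 2. The 2294 had a median of 1748 UMIs, 7.37% of them had at least 5% mitochondrial UMIs, and their hashtag counts were within 3 times of each other in 18.8%. *S100a9* was at 848 UMIs per 10000 in these barcodes and 734 in the kept neutrophils of the same tumor, *Cxcr2* at 5.59 and 5.29 and *Csf3r* at 9.61 and 8.26. In the 2 tumors of run 2 the barcodes outside the kept cells had a median of 3745 and 3688 UMIs, and their hashtag counts were within 3 times of each other in 54.2% and 64.8%. There *S100a9* was lower than in the kept neutrophils, at 529 and 530 against 794 and 785, and *Cxcr2* at 5.44 and 5.53 against 8.72 and 7.58. In the *Csf1rfl/fl* tumor of run 1 *S100a9* was at 822 against 844 and *Cxcr2* at 4.65 in both. Why these barcodes were not kept was not tested.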

How the results depend on the processing

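The count of genes called between genotypes in neutrophils was 0, and it stayed 0 under DESeq2, RLE size factors, thresholds of 200 and 500, a hashtag margin of 3, no doublets and thinning. It was also 0 with *S100a8* and *S100a9* left out of the totals and in clusters 1 to 3, alternatives chosen after seeing the data. It was 24 without a filter on low counts and 4 with the replicate block by run. Leaving out 1 tumor gave 6 to 40 calls, with 23 and 29 without the *Csf1rfl/fl* tumor of runs 1 and 2 and 40 and 6 without the *Lyve1CreCsf1rfl/fl* tumor of runs 1 and 2, where the lone tumor is assumed to vary like the other genotype. The block changed neither the result for the share nor the call of any of the 4 markers outside the rule, and the test against monocytes already held the tumor as a block. The count against monocytes was 0 and became 9 without a filter, 2 at a threshold of 500, 1 with thinning and 1 against all other kept cells. Without a tumor it was 0 to 6, with 1 and 0 without the *Csf1rfl/fl* tumor of runs 1 and 2 and 6 and 2 without the *Lyve1CreCsf1rfl/fl* tumor. The log2 difference in share, 0.04, was −0.0042 without doublets, −0.0197 among all barcodes, 0.04 with the block, 0.26 as a share of myeloid cells, 0.11 with a hashtag margin of 3 and −0.34 to 0.42 when 1 tumor was left out. It turned to −0.18 without the *Csf1rfl/fl* tumor of run 1 and to −0.34 without the *Lyve1CreCsf1rfl/fl* tumor of run 1. Without 1 tumor the fold change of *Retnlg* was −0.62 to 0.62, positive without the *Csf1rfl/fl* tumor of run 1 (0.62) or the *Lyve1CreCsf1rfl/fl* tumor of run 2 (0.07). Those of *G0s2* and *Cxcl2* were −0.033 to 0.44 and −0.34 to 0.56, negative without the *Lyve1CreCsf1rfl/fl* tumor of run 1, and that of *Il1a* was −0.84 to 0.55, positive without the *Csf1rfl/fl* tumor of run 2. Of the genes called with the block, the fold change was −2.54 to −1.52 for *Ccl7*, −3.28 to −1.30 for *Ccl12*, −4.48 to −1.39 for *Ccr9* and 1.398 to 3.44 for *Plet1*, the largest being without the *Csf1rfl/fl* tumor of run 1 for *Plet1* and without the *Lyve1CreCsf1rfl/fl* tumor of run 1 for the others. The cause was not tested. The difference of 10.99 percentage points in cluster 2 was 10.95 and 10.97 at resolutions of 0.2 and 0.8. Both used the same cells, genes and components, and each new cluster was assigned to the original cluster it shared most cells with. At 0.2 no cluster was assigned to cluster 3. The values are thus close largely by construction and are no separate check of the difference. With 2 tumors per genotype, 15.5% of changes of 1 on the log2 scale could be called in the test on known changes.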
